A study of Mus musculus with 12 samples.

Results

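The nuclear-encoded subunits of the mitochondrial respiratory chain and ATP synthase were followed in sorted mouse microglia, the resident macrophages of the brain. The genes were taken by symbol. Names in Nduf followed by a, b, c, s or v and a number, and Ndufab1, stand for complex I, and Sdha to Sdhd for complex II. Names in Uqcr stand for complex III, those from Cox4 to Cox8 for complex IV, and names in Atp5 for complex V, with pseudogene symbols left out. This gave 85 of the 24328 symbols in the count table: 38 in complex I, 4 in complex II, 8 in complex III, 18 in complex IV and 17 in complex V. RNA-seq libraries came from 12 wild-type BALB/c mice, 4 per group. Allogeneic and syngeneic recipients were lethally irradiated. They were given 5000000 bone marrow cells together with 300000 T cells from an allogeneic or a syngeneic source. They were perfused on day 14, at the labelled peak of GvHD (graft-versus-host disease, in which T cells of the graft injure tissues of the recipient). Control mice were untransplanted, so that irradiation and transplantation are shared by both recipient groups. Donor strain, sorting gate, age and the share of donor-derived cells among those sorted were not stated in the labels, and p-values measure the spread between these mice.

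Electrons from NADH enter the chain at complex I and those from succinate at complex II, pass through ubiquinone to complex III and through cytochrome c to complex IV, where oxygen is reduced. Complexes I, III and IV pump protons across the inner mitochondrial membrane, and complex V, the ATP synthase, uses the return flow to make ATP. All but complex II join catalytic subunits, some encoded by mitochondrial DNA and not analysed here, to small accessory subunits encoded in the nucleus. Microglia of the healthy brain rely on oxidative phosphorylation and can shift towards glycolysis when they are activated by inflammatory stimuli.

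Library totals were 35559202 to 42641198 counts in allogeneic, 36422729 to 46126118 in syngeneic and 32652208 to 45439607 in control libraries. The 9 microglia markers, among them P2ry12, Tmem119 and Cx3cr1, were present in every group. Their summed levels were 31300 to 32900 CPM in allogeneic, 42300 to 44600 CPM in syngeneic and 45000 to 51400 CPM in control libraries (CPM, counts scaled to the library size with TMM factors). Markers of some other cells moved with the groups. The 6 monocyte markers summed to 93.9 to 139 CPM in allogeneic, 14.3 to 32 CPM in syngeneic and 8.59 to 15.2 CPM in control libraries. The 5 NK cell markers summed to 21.2 to 36.3 CPM in allogeneic, 0 to 1.79 CPM in syngeneic and 0 to 1.54 CPM in control libraries, with Ncr1 and Prf1 at 0 in every library. The 7 markers of choroid plexus epithelium, the tissue that makes cerebrospinal fluid, summed to 414 to 779 CPM in allogeneic, 1410 to 2450 CPM in syngeneic and 21.2 to 143 CPM in control libraries. The 5 neuron markers summed to 5.55 to 9.64 CPM, 5.96 to 13 CPM and 1.57 to 2.22 CPM in the same order, and the 5 astrocyte markers to 13.4 to 27.7 CPM, 16.4 to 28.5 CPM and 0.843 to 5.95 CPM. Oligodendrocyte, B cell, T cell, neutrophil and erythroid markers gave sums that overlapped between all groups. Single markers did move: of 4 oligodendrocyte markers tested, 3 were called higher and 1 lower in each recipient group against control. The 1 T cell marker tested was called higher in both, and the 1 B cell marker tested was called lower in syngeneic against control microglia. Of the erythroid markers Hba-a1, Hba-a2, Hbb-b1 and Hbb-b2 were at 0 in every library, which leaves Alas2 alone. T cell markers summed to at most 1.48 CPM in allogeneic, 1.2 CPM in syngeneic and 0.471 CPM in control libraries. Endothelial and mural markers were highest in controls, at 23.1 to 39.8 CPM. They summed to 15 to 22.9 CPM in allogeneic and 13.8 to 18.4 CPM in syngeneic libraries. The part of all these cells in the levels described here was not tested. In bulk libraries fewer cells of a type and less RNA per cell cannot be told apart.

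Of the 85 genes, 81 passed the filter on low counts and were tested. Ndufs5, Ndufa4l2 and Cox8c were listed at 0 in every library, and Cox7b2 had 1 count in all, in a control library. The counting annotation was not stated. Whether a 0 here reflects an absent transcript or the way reads were assigned to genes was not tested. Each complex was higher as a sum in allogeneic than in syngeneic microglia, and higher in syngeneic than in control microglia, with no overlap between libraries of the 3 groups. The 85 genes together held 1.19% to 1.22% of all counts in allogeneic, 1.01% to 1.07% in syngeneic and 0.682% to 0.733% in control libraries. Complex IV differed most in fold: its members summed to 2937 ± 58.3 CPM in allogeneic, 1960 ± 80.1 CPM in syngeneic and 873 ± 37.4 CPM in control libraries (SD, n = 4 each), 3.36 times the control level in allogeneic microglia. Complex I summed to 4833 ± 169 CPM in allogeneic, 3775 ± 157 CPM in syngeneic and 2278 ± 129.9 CPM in control libraries. Complex V summed to 3621 ± 135 CPM in allogeneic, 2804 ± 84.9 CPM in syngeneic and 1738 ± 95.5 CPM in control libraries. Complexes II and III were at 1.68 and 1.74 times the control level in allogeneic microglia, below the 2.12 of complex I and the 2.08 of complex V. These sums are descriptions and carry no test.

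**Figure D1:**
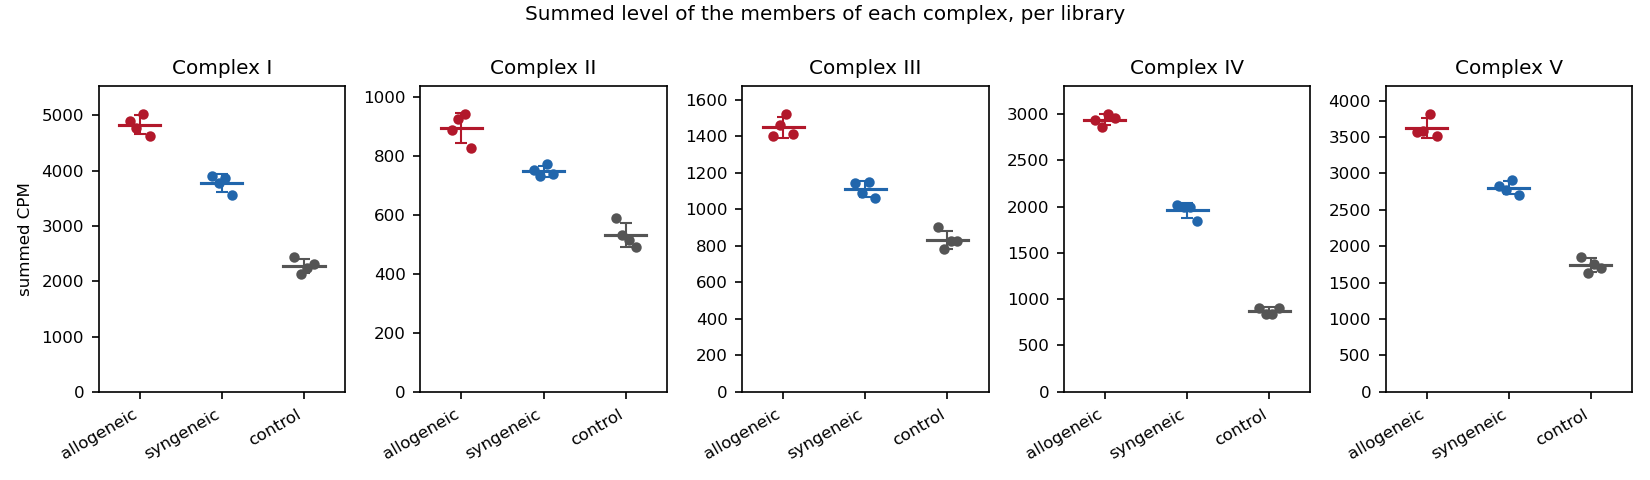
Summed CPM of the members of each complex (y axis, from 0) in the 4 libraries of each group (points), with the group mean (line) and SD (bar). In all 5 complexes every allogeneic library lies above every syngeneic library, and every syngeneic library above every control library; complex IV differs most in fold, with means of 2937 CPM in allogeneic, 1960 CPM in syngeneic and 873 CPM in control libraries.

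Promoter sequence was examined because many members moved together. RefSeq (GRCm38.p6) windows from 250 bases before to 50 bases after the start were at hand for 70 of the 85 genes, as 76 windows. They were searched on both strands for 5 short motifs known from respiratory chain promoters: GCGCATGCG of NRF1, CCGGAAG of the ETS factor GABP, AAGATGGC of YY1, TGACGTCA of the cyclic AMP response element and TCAAGGTCA of the oestrogen-related receptors. At least 1 of the 5 stood in 46.1% of the members' windows, against 14.3% of all 32851 mouse windows of the same length. GCGCATGCG was found in 10.5% of the members' windows and 1.75% of all windows, CCGGAAG in 21.1% and 8.86%, and AAGATGGC in 15.8% and 2.75%. TGACGTCA was found in 5.26% of the members' windows and 1.79% of all windows, and TCAAGGTCA in 2.63% and 0.423%. A match is a string of letters and not a binding site. The motifs were chosen because they are known from such promoters, and the windows compared were not limited to genes tested. The part of these motifs in the changes was not tested. In allogeneic against syngeneic microglia the median log2 fold change was 0.51 for the 8 tested members with GCGCATGCG and 0.43 for the 60 without it. It was 0.49 for the 16 with CCGGAAG and 0.41 for the 52 without it, and 0.43 for the 11 with AAGATGGC and 0.46 for the 57 without it. For TGACGTCA it was 0.495 in the 4 with it and 0.43 in the 64 without it, and for TCAAGGTCA 0.48 in the 2 with it and 0.43 in the 66 without it. These medians carry no test.

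Shown are the bases from 150 before to 30 after the start for the member of each complex with the smallest p in allogeneic against syngeneic microglia and a single window, and for Uqcrc1, which was lower in recipients than in controls and has a single window. Capitals mark a motif; CTTCCGG is CCGGAAG read on the other strand, and GCGCATGCG matches both strands, shifted by a base.
Ndufa1: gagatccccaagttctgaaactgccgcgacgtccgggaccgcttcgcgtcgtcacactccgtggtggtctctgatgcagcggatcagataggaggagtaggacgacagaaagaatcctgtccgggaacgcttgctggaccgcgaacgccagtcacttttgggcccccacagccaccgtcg
Sdhb: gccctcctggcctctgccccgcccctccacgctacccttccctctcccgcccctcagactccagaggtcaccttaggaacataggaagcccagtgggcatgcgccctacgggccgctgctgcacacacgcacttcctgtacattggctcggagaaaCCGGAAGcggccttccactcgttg
Uqcrh: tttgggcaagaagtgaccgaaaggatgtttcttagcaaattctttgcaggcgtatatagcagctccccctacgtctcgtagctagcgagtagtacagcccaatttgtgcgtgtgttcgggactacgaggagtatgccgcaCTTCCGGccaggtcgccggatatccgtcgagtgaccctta
Cox8a: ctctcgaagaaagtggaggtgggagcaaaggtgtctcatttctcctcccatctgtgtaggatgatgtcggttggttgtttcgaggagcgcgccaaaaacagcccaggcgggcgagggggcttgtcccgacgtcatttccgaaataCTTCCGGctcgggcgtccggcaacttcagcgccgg
Atp5g2: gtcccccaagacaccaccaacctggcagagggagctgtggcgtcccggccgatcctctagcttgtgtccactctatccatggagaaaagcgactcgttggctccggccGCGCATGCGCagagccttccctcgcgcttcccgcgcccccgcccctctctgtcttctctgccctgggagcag
Uqcrc1: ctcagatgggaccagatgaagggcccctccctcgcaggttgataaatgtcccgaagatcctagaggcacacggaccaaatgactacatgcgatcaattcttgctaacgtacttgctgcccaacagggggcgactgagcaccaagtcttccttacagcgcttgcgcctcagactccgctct
The Ndufa1 stretch lies at chrX:37191209-37191388 on the minus strand, Sdhb at chr4:140961121-140961300 on the plus strand, Uqcrh at chr4:116075041-116075220 on the minus strand, Cox8a at chr19:7217587-7217766 on the minus strand, Atp5g2 at chr15:102671018-102671197 on the minus strand and Uqcrc1 at chr9:108936498-108936677 on the plus strand (GRCm38.p6).
CCGGAAG stood close to the start in Sdhb, Uqcrh and Cox8a, and Atp5g2 held GCGCATGCG.
None of the 5 motifs stood in the printed stretches of Ndufa1 and Uqcrc1, whereas the longer window of Uqcrc1 held GCGCATGCG.

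Allogeneic microglia were compared with syngeneic microglia to ask what GvHD adds to irradiation and transplantation. Subunits of all 5 complexes rose. Of 81 members tested, 53 rose and 0 fell (edgeR, quasi-likelihood, adjusted p under 0.05), where 10.1% of all 12695 genes tested were called higher and 6.38% lower. The median log2 fold change was 0.43 over the members and -0.01 over all genes tested. Beside the 0 falls, 1 member was lower at an unadjusted p under 0.05, DESeq2 and limma-voom called 0 lower, and scaling by library totals only called 3 lower: Ndufs1, Sdha and Ndufab1. The rises were 24 of 36 tested in complex I, 2 of 4 in complex II, 5 of 8 in complex III, 11 of 16 in complex IV and 11 of 17 in complex V. The median log2 fold changes were 0.37, 0.28, 0.41, 0.58 and 0.47. In 58 members every allogeneic library lay above every syngeneic library and in 0 below, where 12.6% and 8.10% of all genes did so. Transcript length, described further on, moved with these values. With an offset for GC content and length 23 members rose and 1, Cox5a, fell, at a median of 0.15. The share of all genes called with the offset is not given, here or in the other comparisons. Member counts with it therefore stand without that background. With library totals only, 38 members rose, at a median of 0.23, where that of all genes moved to -0.22 and over all genes 844 were called higher and 2108 lower, against 1288 and 810 with TMM factors. The count of 53 ran from 46 without syngeneic library 4 to 56 over the libraries left out singly. Over all genes tested 1086 to 1314 were called higher and 675 to 844 lower in these fits. Without allogeneic library 1, 2 members were called lower, Cox5a and Ndufab1.

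Syngeneic microglia were compared with control microglia to ask what irradiation and transplantation do without GvHD. The difference was larger here: 70 of 81 members rose and 3 fell, where 26.4% of all genes tested were called higher and 25.6% lower. Among the members that fell were Uqcrc1, a core subunit of complex III, and Atp5sl. The median log2 fold change was 0.86 over the members and -0.03 over all genes tested. The rises were 33 of 36 in complex I, 4 of 4 in complex II, 7 of 8 in complex III, 14 of 16 in complex IV and 12 of 17 in complex V, with medians of 0.82, 0.43, 0.82, 1.09 and 0.88. In 68 members every syngeneic library lay above every control library and in 3 below, where 24.6% and 25.5% of all genes did so. With the offset 61 rose and 2 fell, at a median of 0.51. With library totals only, 68 rose and 4 fell, where the median of all genes moved to -0.20 and 2723 genes were called higher and 3968 lower, against 3357 and 3253 with TMM factors.

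Allogeneic microglia were also set against control microglia, which spans GvHD and transplantation together. Here 71 of 81 members rose and 3 fell, Uqcrc1 and Atp5sl among them, where 28.2% of all genes tested were called higher and 29.1% lower. The median log2 fold change was 1.38 over the members and -0.07 over all genes tested. It was 1.20 in complex I, 0.70 in complex II, 1.37 in complex III, 1.71 in complex IV and 1.45 in complex V. In 72 members every allogeneic library lay above every control library and in 4 below, where 26.2% and 27.7% of all genes did so. With the offset 66 rose and 4 fell, at a median of 0.63. With library totals only, 65 rose and 5 fell, where the median of all genes moved to -0.44 and 2453 genes were called higher and 5259 lower, against 3576 and 3697 with TMM factors. The comparisons share libraries, so that their values stand side by side and do not support each other.

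**Figure D2:**
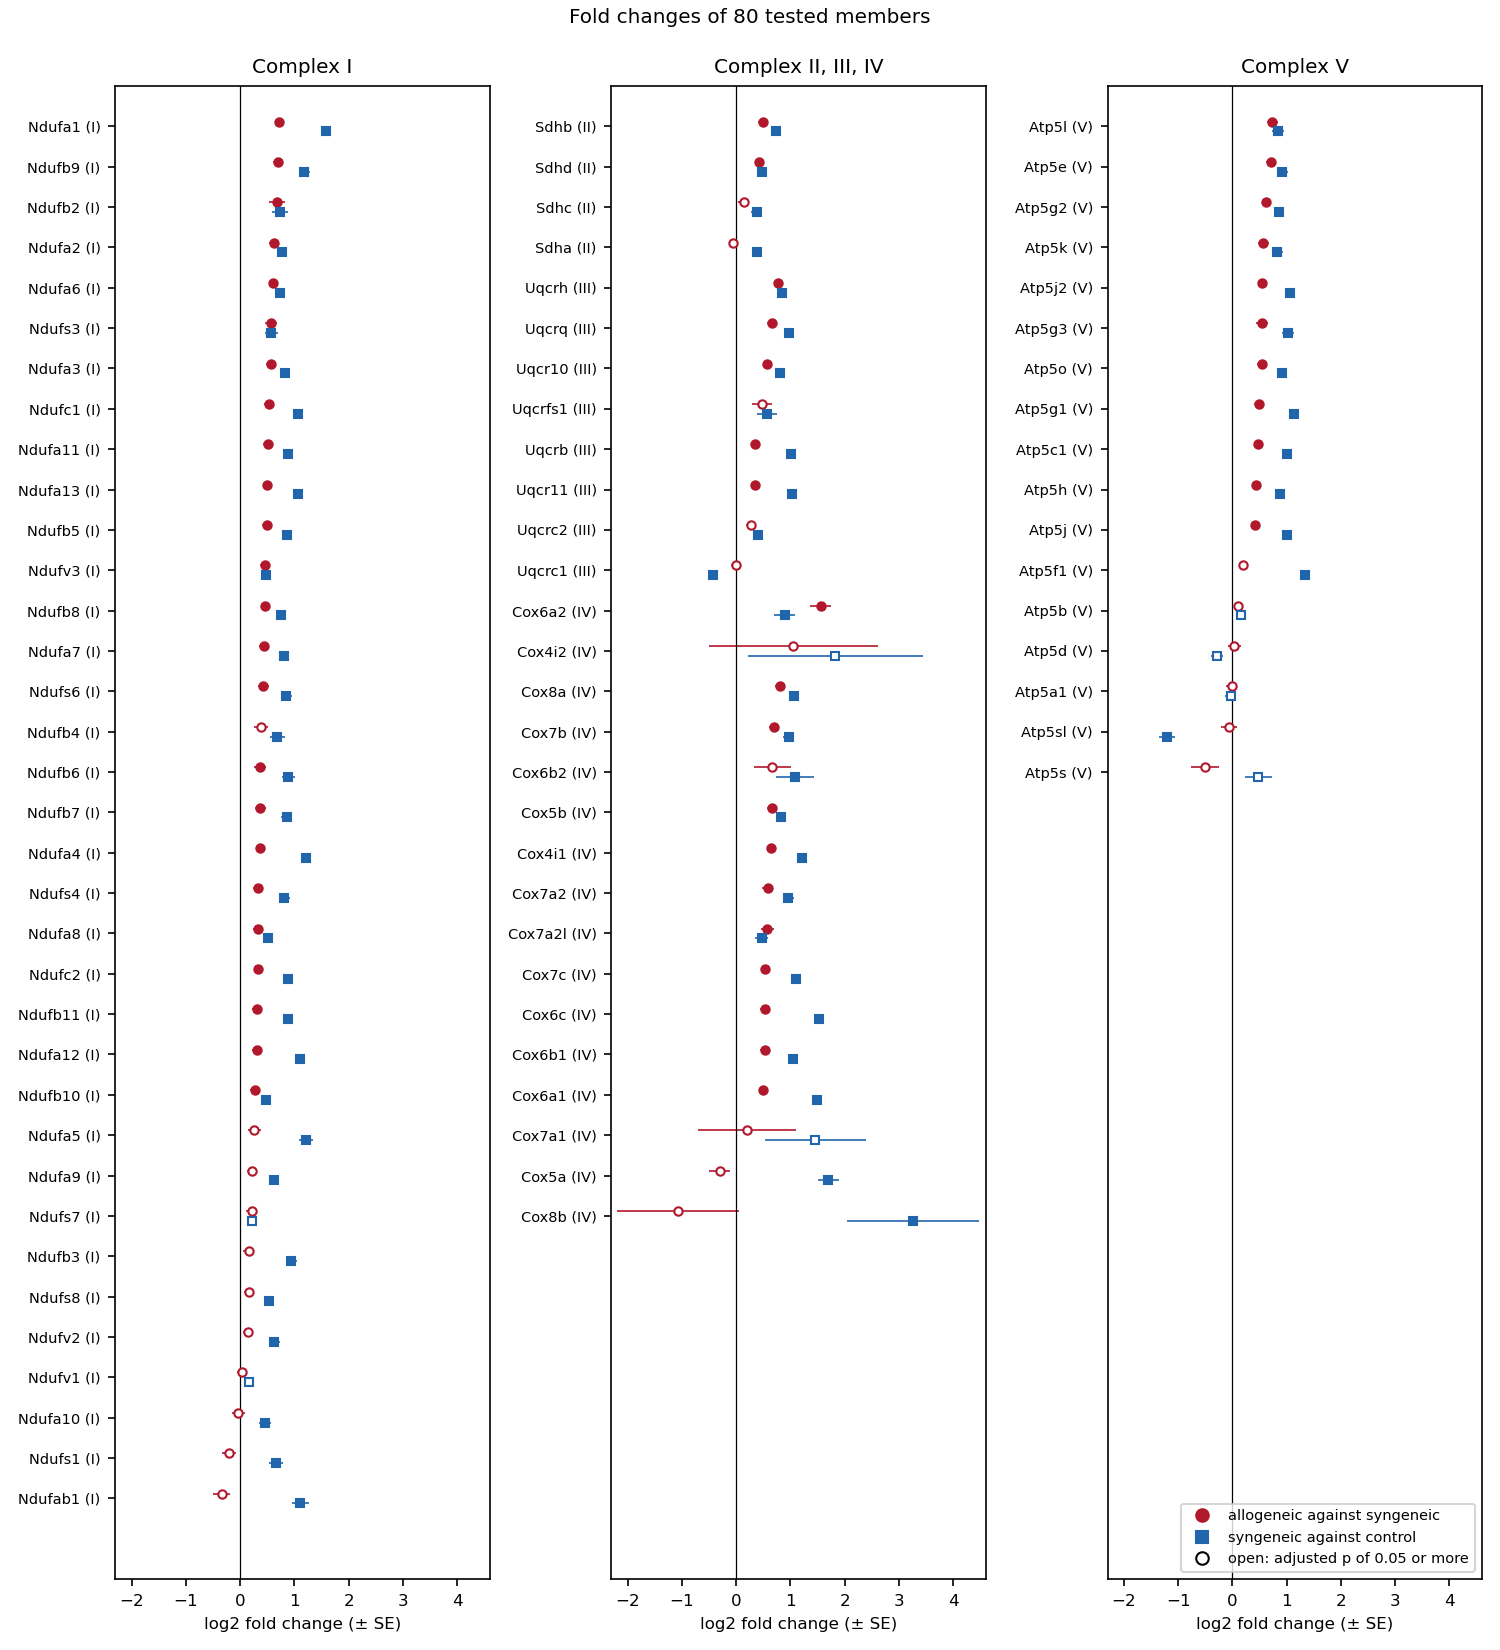
Log2 fold change (x axis, ± SE) of 80 tested members by complex, for allogeneic against syngeneic (circles) and syngeneic against control (squares); open symbols mark an edgeR adjusted p of 0.05 or more. Most symbols lie right of 0 in both comparisons, while Uqcrc1 and Atp5sl lie left of 0 in syngeneic against control.

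Complex I takes electrons from NADH through a flavin and a chain of iron-sulfur clusters that its core subunits carry. Log2 fold changes are given ± SE from here on. Ndufv1, the subunit that binds NADH and flavin, was at 86.5, 92.0, 102 and 89.9 CPM in allogeneic, 89.7, 85.7, 86.1 and 99.6 CPM in syngeneic and 83.5, 80.7, 80.6 and 77.5 CPM in control libraries. Its recipient libraries overlapped with each other and lay just above the controls, and no comparison called it (log2 fold change 0.16 ± 0.09 in syngeneic against control, edgeR adjusted p = 0.133). Ndufs3, a core subunit of the arm that reaches into the matrix, was at 104, 88.7, 122 and 87.6 CPM in allogeneic, 69.97, 71.9, 67.6 and 62.1 CPM in syngeneic and 50.3, 40.8, 45.7 and 45.7 CPM in control libraries. Its groups did not overlap, and it rose in allogeneic against syngeneic microglia (log2 change 0.57 ± 0.12, edgeR adjusted p = 0.00165) as in syngeneic against control microglia (log2 change 0.57 ± 0.12, edgeR adjusted p = 0.000397).

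Ndufs3 was the only one of the 7 core subunits tested that rose in allogeneic against syngeneic microglia, while 23 of 29 members of complex I outside that set did so. Ndufs1, the largest iron-sulfur subunit, had log2 fold changes of -0.21 ± 0.13 in allogeneic against syngeneic (edgeR adjusted p = 0.313) and 0.65 ± 0.13 in syngeneic against control microglia, where it rose. The iron-sulfur subunits Ndufs8 and Ndufv2 also rose in syngeneic against control microglia (0.53 ± 0.08 and 0.63 ± 0.09), and had 0.16 ± 0.08 and 0.15 ± 0.09 in allogeneic against syngeneic microglia, where neither was called. Ndufs7, which carries the last cluster before ubiquinone, rose only in allogeneic against control microglia among the 3 comparisons (log2 change 0.44 ± 0.10, edgeR adjusted p = 0.00104). In syngeneic against control microglia it had 0.22 ± 0.10 (edgeR adjusted p = 0.0727). It was called there without control library 1 at 0.27 (edgeR adjusted p = 0.0445), without control library 3 at 0.27 (edgeR adjusted p = 0.0445) and without syngeneic library 2 at 0.27 (edgeR adjusted p = 0.0428). With the offset Ndufv1 was called higher in syngeneic against control microglia, at 0.55 (edgeR adjusted p = 1.88e-05), and Ndufv2 was not, at 0.14 (edgeR adjusted p = 0.212); in allogeneic against control microglia Ndufs7 was not called, at 0.18 (edgeR adjusted p = 0.117).

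The accessory subunits of complex I surround this core and are needed for assembly and stability. Ndufa1, a small membrane subunit, was at 151, 143, 153 and 141 CPM in allogeneic, 88.6, 85.9, 96.7 and 85.1 CPM in syngeneic and 31.8, 26.7, 30.5 and 29.4 CPM in control libraries. Its 3 groups lay apart, and it rose in both steps (log2 change 0.72 ± 0.09, edgeR adjusted p = 7.39e-06 in allogeneic against syngeneic, and log2 change 1.59 ± 0.09, edgeR adjusted p = 1.16e-10 in syngeneic against control). Ndufa6, which belongs to the LYR protein family, was at 260.4, 262, 234 and 240.4 CPM in allogeneic, 171, 159, 169 and 155 CPM in syngeneic and 105, 90.7, 88.0 and 108 CPM in control libraries. The groups again lay apart, with a log2 fold change of 0.61 ± 0.08 in allogeneic against syngeneic microglia (edgeR adjusted p = 2.83e-05). Ndufb9, another LYR protein, was at 147, 140.0, 139.5 and 154 CPM in allogeneic, 85.3, 92.8, 93.6 and 86.7 CPM in syngeneic and 41.9, 33.3, 37.3 and 44.9 CPM in control libraries. It rose in allogeneic against syngeneic microglia (log2 change 0.70 ± 0.10, edgeR adjusted p = 3.73e-05). Ndufa2 rose by 0.62 ± 0.09 on the log2 scale in allogeneic against syngeneic microglia, and Ndufa13, also known as GRIM-19, by 0.50 ± 0.08. Ndufa4, named as a complex I gene and since assigned to complex IV, had 0.36 ± 0.08 in allogeneic against syngeneic and 1.22 ± 0.08 in syngeneic against control microglia, and rose in both. With the offset the calls of Ndufa2 and Ndufa4 in allogeneic against syngeneic microglia ended, at 0.24 (edgeR adjusted p = 0.0517) and -0.09 (edgeR adjusted p = 0.466).

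Ndufab1, the mitochondrial acyl carrier protein, stood against the other accessory subunits. It was at 71.5, 35.6, 55.1 and 48.2 CPM in allogeneic, 64.8, 70.8, 67.6 and 62.6 CPM in syngeneic and 27.9, 30.6, 30.8 and 33.8 CPM in control libraries. The recipient groups overlapped because allogeneic library 1 was high, and both lay above the controls; it rose in syngeneic against control microglia (log2 change 1.11 ± 0.16, edgeR adjusted p = 1.24e-05). In allogeneic against syngeneic microglia it had -0.34 ± 0.16 (edgeR adjusted p = 0.168), and without allogeneic library 1 it was called lower, at -0.52 (edgeR adjusted p = 0.0192). It was singled out after its values were seen. The remaining accessory members of complex I had log2 fold changes from -0.03 (Ndufa10) to 0.67 (Ndufb2) in allogeneic against syngeneic microglia and from 0.45 (Ndufa10) to 1.21 (Ndufa5) in syngeneic against control microglia.

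Complex II oxidises succinate at Sdha, a flavoprotein shared with the citric acid cycle, passes electrons through the iron-sulfur subunit Sdhb, and is held in the membrane by Sdhc and Sdhd. Sdhb was at 299, 302, 325 and 274 CPM in allogeneic, 215, 213, 227 and 203 CPM in syngeneic and 145, 129, 123 and 121 CPM in control libraries. No libraries of different groups overlapped, and Sdhb rose in allogeneic against syngeneic (log2 change 0.48 ± 0.08, edgeR adjusted p = 0.000149) and in syngeneic against control microglia (log2 change 0.73 ± 0.08, edgeR adjusted p = 3.29e-07). Sdha was at 230.4, 269, 247 and 226 CPM in allogeneic, 236, 236, 271 and 265 CPM in syngeneic and 209.8, 204, 195 and 169 CPM in control libraries. Its allogeneic and syngeneic libraries overlapped, and it rose only against control, in syngeneic (log2 change 0.37 ± 0.08, edgeR adjusted p = 0.00106) and in allogeneic microglia (log2 change 0.32 ± 0.08, edgeR adjusted p = 0.00321). With library totals only the second turned to -0.049 and was not called. Of the anchors, Sdhd had log2 fold changes of 0.42 ± 0.08 in allogeneic against syngeneic and 0.48 ± 0.08 in syngeneic against control microglia and rose in both, and Sdhc had 0.14 ± 0.10 and 0.38 ± 0.11 and rose only in the second. With library totals only the call of Sdhc ended there, at 0.21 (edgeR adjusted p = 0.0824). With the offset the call of Sdhd in syngeneic against control microglia ended, at 0.13 (edgeR adjusted p = 0.147).

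Complex III passes electrons from ubiquinol to cytochrome c through the Rieske protein Uqcrfs1 and its cytochromes. Uqcrc1, which with Uqcrc2 forms the large core facing the matrix, was at 230.3, 241, 294 and 283 CPM in allogeneic, 265, 262, 256 and 275 CPM in syngeneic and 391, 317, 363 and 355 CPM in control libraries. Every recipient library lay below every control library and the recipient groups overlapped, and Uqcrc1 fell in syngeneic against control microglia (log2 change -0.43 ± 0.08, edgeR adjusted p = 0.000327). It also fell in allogeneic against control microglia (log2 change -0.44 ± 0.08, edgeR adjusted p = 0.000212). With the offset both calls ended, at 0.01 (edgeR adjusted p = 0.96) and -0.01 (edgeR adjusted p = 0.888). Uqcrh, the hinge protein that docks cytochrome c, was at 232, 235, 223 and 229.9 CPM in allogeneic, 140.5, 127, 139 and 131 CPM in syngeneic and 84.4, 68.4, 70.8 and 77.3 CPM in control libraries. Its groups lay far apart, and it rose in allogeneic against syngeneic (log2 change 0.77 ± 0.08, edgeR adjusted p = 9.88e-07) and in syngeneic against control microglia (log2 change 0.84 ± 0.08, edgeR adjusted p = 9.89e-08).

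The small subunit Uqcrq was at 178, 181, 184 and 156 CPM in allogeneic, 107, 108, 119.7 and 108 CPM in syngeneic and 57.3, 49.0, 61.2 and 59.2 CPM in control libraries. It too rose without overlap, by 0.65 ± 0.09 on the log2 scale in allogeneic against syngeneic and 0.97 ± 0.09 in syngeneic against control microglia. The other small subunits rose in allogeneic against syngeneic microglia, Uqcr10 by 0.57 ± 0.09, Uqcr11 by 0.35 ± 0.08 and Uqcrb by 0.35 ± 0.08. With the offset these calls ended, at 0.13 (edgeR adjusted p = 0.28), -0.02 (edgeR adjusted p = 0.915) and -0.07 (edgeR adjusted p = 0.659). Uqcrb lost its call in syngeneic against control microglia as well, at -0.08 (edgeR adjusted p = 0.438), against 1.001 ± 0.08 without the offset. None of the 3 core members, Uqcrc1, Uqcrc2 and Uqcrfs1, was called in allogeneic against syngeneic microglia. Uqcrc2 had 0.27 ± 0.09 there (edgeR adjusted p = 0.0521), and was called without syngeneic library 1, at 0.31 (edgeR adjusted p = 0.0422), and without allogeneic library 4, at 0.32 (edgeR adjusted p = 0.031). Uqcrfs1, the lowest of the core subunits per kilobase, had 0.47 ± 0.18 (edgeR adjusted p = 0.0758). In syngeneic against control microglia Uqcrc2 and Uqcrfs1 rose by 0.40 ± 0.09 and 0.57 ± 0.18, calls that ended with the offset at 0.06 (edgeR adjusted p = 0.627) and 0.23 (edgeR adjusted p = 0.32). That of Uqcrfs1 also ended with library totals only, at 0.40 (edgeR adjusted p = 0.0798).

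Complex IV, cytochrome c oxidase, surrounds its mitochondrially encoded catalytic core with nuclear subunits, several of which exist as tissue isoforms. Cox4i1, the ubiquitous form of its largest nuclear subunit, was at 835, 828, 839 and 860.2 CPM in allogeneic, 542, 552, 534 and 519 CPM in syngeneic and 252, 211, 217 and 247 CPM in control libraries. The 3 groups lay far apart, and Cox4i1 rose in allogeneic against syngeneic (log2 change 0.65 ± 0.07, edgeR adjusted p = 6.35e-07) and in syngeneic against control microglia (log2 change 1.21 ± 0.07, edgeR adjusted p = 6.98e-11). Cox6a1, a subunit that regulates the enzyme, was at 514, 513, 564 and 544 CPM in allogeneic, 395, 362, 405 and 349.7 CPM in syngeneic and 139, 124, 137 and 139 CPM in control libraries. It rose without overlap (log2 change 0.50 ± 0.07, edgeR adjusted p = 3.42e-05 in allogeneic against syngeneic, and log2 change 1.49 ± 0.07, edgeR adjusted p = 1.39e-11 in syngeneic against control), and the offset ended the first of these calls, at 0.18 (edgeR adjusted p = 0.0521). Cox8a was at 214, 229.8, 247 and 232 CPM in allogeneic, 133, 132, 139.9 and 123 CPM in syngeneic and 64.4, 57.2, 61.6 and 69.3 CPM in control libraries, and rose in allogeneic against syngeneic microglia (log2 change 0.81 ± 0.08, edgeR adjusted p = 7.68e-07). Cox5b, which binds zinc, had log2 fold changes of 0.66 ± 0.09 in allogeneic against syngeneic and 0.82 ± 0.09 in syngeneic against control microglia and rose in both. Cox6c had 0.52 ± 0.09 and 1.52 ± 0.09 and rose in both, though with the offset not in the first, at 0.16 (edgeR adjusted p = 0.264).

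Cox5a went against this pattern, at 64.2, 29.0, 44.2 and 41.2 CPM in allogeneic, 45.8, 52.3, 55.8 and 66.5 CPM in syngeneic and 14.8, 16.0, 18.8 and 18.4 CPM in control libraries. Allogeneic library 1 lay far above the other 3 of its group, the recipient groups overlapped, and both lay above the controls. Cox5a rose in syngeneic against control microglia (log2 change 1.70 ± 0.20, edgeR adjusted p = 8.58e-07) and had -0.30 ± 0.19 in allogeneic against syngeneic microglia (edgeR adjusted p = 0.328). It was called lower there without allogeneic library 1, at -0.53 (edgeR adjusted p = 0.0473), and with the offset, at -0.68 (edgeR adjusted p = 0.0227). The remaining members of complex IV with ubiquitous expression, Cox6b1, Cox7a2, Cox7a2l, Cox7b and Cox7c, rose in both comparisons, by 0.52 to 0.70 on the log2 scale in allogeneic against syngeneic and by 0.47 to 1.104 in syngeneic against control microglia. Cox7a2l acts in joining complexes III and IV into supercomplexes. With the offset the calls of Cox6b1, Cox7a2 and Cox7c in allogeneic against syngeneic microglia ended, at 0.15 (edgeR adjusted p = 0.149), 0.25 (edgeR adjusted p = 0.0695) and 0.12 (edgeR adjusted p = 0.289). So did those of Cox7a2l and Cox7b in syngeneic against control microglia, at 0.07 (edgeR adjusted p = 0.664) and 0.09 (edgeR adjusted p = 0.401).

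Cox6a2, the isoform of heart and skeletal muscle, had the largest log2 fold change of the members called in allogeneic against syngeneic microglia. It was at 31.1, 36.2, 27.7 and 38.1 CPM in allogeneic, 10.9, 11.9, 8.76 and 13.5 CPM in syngeneic and 7.39, 5.07, 5.55 and 6.28 CPM in control libraries. Every allogeneic library lay above every syngeneic library, and every syngeneic library above every control library. Cox6a2 rose in both steps (log2 change 1.56 ± 0.20, edgeR adjusted p = 1.06e-05 in allogeneic against syngeneic, and log2 change 0.90 ± 0.20, edgeR adjusted p = 0.000831 in syngeneic against control). With the offset it stayed called in allogeneic against syngeneic microglia, at 1.23 (edgeR adjusted p = 0.00016). The 5 muscle markers Myh6, Myh7, Acta1, Ckm and Actc1 summed to 0.229 to 0.942 CPM in allogeneic, 0.0253 to 1.29 CPM in syngeneic and 0.0196 to 0.173 CPM in control libraries. The integrin genes Itgad and Itgax lie on the same side of Cox6a2 in RefSeq, Itgad overlapping its exon on the other strand. Itgad averaged 0.023 CPM in allogeneic, 0.032 CPM in syngeneic and 0.185 CPM in control libraries. Itgax was at 73.9, 132, 126 and 102 CPM in allogeneic, 14.4, 15.7, 21.1 and 16.1 CPM in syngeneic and 18.0, 20.7, 23.2 and 25.9 CPM in control libraries. Its log2 fold change was 2.69 ± 0.18 in allogeneic against syngeneic microglia. The neighbours 9130023H24Rik, Armc5 and Tgfb1i1 had -0.14, 0.32 and 0.27 in that comparison, and none was called. The part of reads from Itgad and Itgax in the Cox6a2 counts was not tested. As a share of Cox6a1 counts, Cox6a2 counts were 6.05%, 7.05%, 4.92% and 7.001% in allogeneic, 2.77%, 3.30%, 2.16% and 3.87% in syngeneic and 5.33%, 4.09%, 4.04% and 4.51% in control libraries, so that the ratio was lowest in syngeneic microglia. Among 24 exact two-sided permutation tests of such ratios, the smallest p that 4 against 4 libraries allow is 0.0286, and Cox6a2 to Cox6a1 reached it in allogeneic against syngeneic (log2 difference 1.07) and in syngeneic against control microglia (-0.59), with an adjusted p of 0.229 in each.

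The other tissue isoforms stayed at low levels. Cox4i2, the lung isoform, reached at most 2.17 CPM in a library, Cox7a1, a muscle isoform, 1.71 CPM, Cox8b, a muscle isoform, 1.92 CPM, and Cox6b2, a testis isoform, 10.1 CPM. Cox8b was called higher in syngeneic against control microglia (log2 change 3.26 ± 1.22, edgeR adjusted p = 0.0321), at 1.92, 1.79, 0.301 and 0.708 CPM in syngeneic and 0.149, 0.0531, 0.274 and 0 CPM in control libraries. That call ended without control library 1 at 3.37 (edgeR adjusted p = 0.068), control library 2 at 3.03 (edgeR adjusted p = 0.0868), control library 4 at 2.86 (edgeR adjusted p = 0.0759), syngeneic library 1 at 2.92 (edgeR adjusted p = 0.0838) or syngeneic library 2 at 2.99 (edgeR adjusted p = 0.0784). Cox6b2 rose in syngeneic against control microglia (log2 change 1.09 ± 0.35, edgeR adjusted p = 0.0138), a call that ended with the offset at 0.78 (edgeR adjusted p = 0.0679), and its ratio to Cox6b1 differed by 0.01 on the log2 scale (exact permutation p = 0.943). The ratio of Cox7a2l to Cox7a2 was 115% to 122% in syngeneic and 133% to 243% in control libraries (log2 difference -0.48, exact permutation p = 0.0286, adjusted p = 0.229). None of the 24 ratio tests passed an adjusted p of 0.05. With a smallest possible exact permutation p of 0.0286, a single ratio could not pass after adjustment over 24 tests. The outcome therefore does not show that the ratios were alike.

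Complex V turns a ring of c subunits in the membrane, and the ring turns the central stalk inside the F1 head, where the alpha and beta subunits make ATP. Atp5a1, the alpha subunit, was at 237, 310.5, 296 and 305 CPM in allogeneic, 303, 254, 288 and 313 CPM in syngeneic and 329.5, 294, 313 and 243 CPM in control libraries. All groups overlapped and no comparison called it (log2 change -0.01 ± 0.10, edgeR adjusted p = 0.967 in allogeneic against syngeneic, and log2 change -0.03 ± 0.10, edgeR adjusted p = 0.849 in syngeneic against control). With single libraries left out its sign changed, between -0.07 and 0.07 in the first and -0.11 and 0.03 in the second. Atp5b, the catalytic beta subunit, was at 301, 302, 354 and 312 CPM in allogeneic, 279, 285, 307 and 308 CPM in syngeneic and 287, 259, 270.0 and 244 CPM in control libraries. It was called higher only in allogeneic against control microglia (log2 change 0.26 ± 0.07, edgeR adjusted p = 0.00617), where library totals only gave -0.11 and no call. It was called in syngeneic against control microglia without control library 1, at 0.19 (edgeR adjusted p = 0.0466), or with the offset, at 0.33 (edgeR adjusted p = 0.000422). Atp5c1, the gamma subunit that forms the turning shaft, was at 609.5, 587, 614 and 575 CPM in allogeneic, 437, 442, 423 and 424 CPM in syngeneic and 227, 191, 217 and 226 CPM in control libraries. Unlike those of Atp5a1 and Atp5b its groups lay apart, and it rose in both steps (log2 change 0.47 ± 0.06, edgeR adjusted p = 3.13e-05 in allogeneic against syngeneic, and log2 change 1.003 ± 0.07, edgeR adjusted p = 5.25e-10 in syngeneic against control).

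Atp5d, the delta subunit of the stalk, was at 73.0, 82.3, 78.9 and 60.7 CPM in allogeneic, 66.6, 63.6, 70.2 and 88.1 CPM in syngeneic and 84.3, 85.0, 95.6 and 85.7 CPM in control libraries. The syngeneic libraries overlapped with both other groups, every allogeneic library lay below every control library, and no comparison called it (log2 change -0.28 ± 0.12, edgeR adjusted p = 0.0547 in syngeneic against control). It was called lower in syngeneic against control microglia without syngeneic library 4, at -0.39 (edgeR adjusted p = 0.00957), or without allogeneic library 4, at -0.28 (edgeR adjusted p = 0.0397). In allogeneic against control microglia it was called lower without syngeneic library 4, at -0.26 (edgeR adjusted p = 0.0425), or with the offset, at -0.34 (edgeR adjusted p = 0.027). Atp5e, the small epsilon subunit of the same stalk, was at 216, 217, 226 and 198 CPM in allogeneic, 126, 141, 140.1 and 115 CPM in syngeneic and 67.1, 59.4, 69.7 and 79.4 CPM in control libraries. It rose without overlap (log2 change 0.72 ± 0.10, edgeR adjusted p = 2.3e-05 in allogeneic against syngeneic, and log2 change 0.92 ± 0.10, edgeR adjusted p = 2.78e-07 in syngeneic against control). Thus 2 of the 5 subunits of head and central stalk rose in allogeneic against syngeneic microglia. So did 3 of 4 of the peripheral stalk (Atp5f1, Atp5h, Atp5j and Atp5o), 3 of 3 of the c ring and 3 of 3 of the small membrane subunits Atp5j2, Atp5k and Atp5l. With the offset it was 2 of 5, 1 of 4, 0 of 3 and 2 of 3.

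The c subunit is encoded by Atp5g1, Atp5g2 and Atp5g3, which differ in the targeting peptide that is removed on import. Atp5g2 was at 188, 173, 173 and 188 CPM in allogeneic, 115, 125, 119 and 109 CPM in syngeneic and 70.8, 60.4, 64.6 and 63.7 CPM in control libraries, and its groups did not overlap. The log2 fold changes in allogeneic against syngeneic microglia were 0.49 ± 0.10 for Atp5g1, 0.62 ± 0.08 for Atp5g2 and 0.54 ± 0.11 for Atp5g3, and all 3 rose. With the offset none was called, at 0.16 (edgeR adjusted p = 0.252), 0.20 (edgeR adjusted p = 0.0795) and 0.21 (edgeR adjusted p = 0.186). The ratios of Atp5g1 and of Atp5g2 to Atp5g3 differed by -0.18 to 0.10 on the log2 scale over the comparisons, with exact permutation p from 0.114 to 0.771. The ratio of Atp5g1 to Atp5g2 was not computed. Atp5f1, the b subunit of the peripheral stalk, was at 548, 492, 536 and 478 CPM in allogeneic, 467, 439, 469 and 407 CPM in syngeneic and 183, 163, 178 and 182 CPM in control libraries. It rose in syngeneic against control microglia (log2 change 1.33 ± 0.07, edgeR adjusted p = 5.47e-11) and had 0.21 ± 0.07 in allogeneic against syngeneic microglia (edgeR adjusted p = 0.0539), where it was called without allogeneic library 4, at 0.24 (edgeR adjusted p = 0.0423). Atp5j2, the f subunit, rose by 0.55 ± 0.08 in allogeneic against syngeneic and 1.06 ± 0.08 in syngeneic against control microglia.

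A pair of genes named Atp5 are not subunits of the synthase in the usual sense. Atp5sl, now Dmac2, is an assembly factor for the membrane arm of complex I, and Atp5s, now Dmac2l, has been described as coupling factor B. Atp5sl was at 21.4, 19.7, 20.9 and 17.6 CPM in allogeneic, 17.7, 17.9, 24.0 and 23.7 CPM in syngeneic and 50.4, 41.4, 48.3 and 50.8 CPM in control libraries. Every control library lay above every recipient library, and Atp5sl fell in syngeneic against control (log2 change -1.20 ± 0.15, edgeR adjusted p = 2.14e-06) and in allogeneic against control microglia (log2 change -1.26 ± 0.15, edgeR adjusted p = 8.57e-07). Both calls held with the offset, at -0.79 (edgeR adjusted p = 0.000217) and -0.83 (edgeR adjusted p = 0.00011). Atp5s had -0.50 ± 0.25 in allogeneic against syngeneic microglia (edgeR adjusted p = 0.207), with overlap between all groups.

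**Figure D3:**
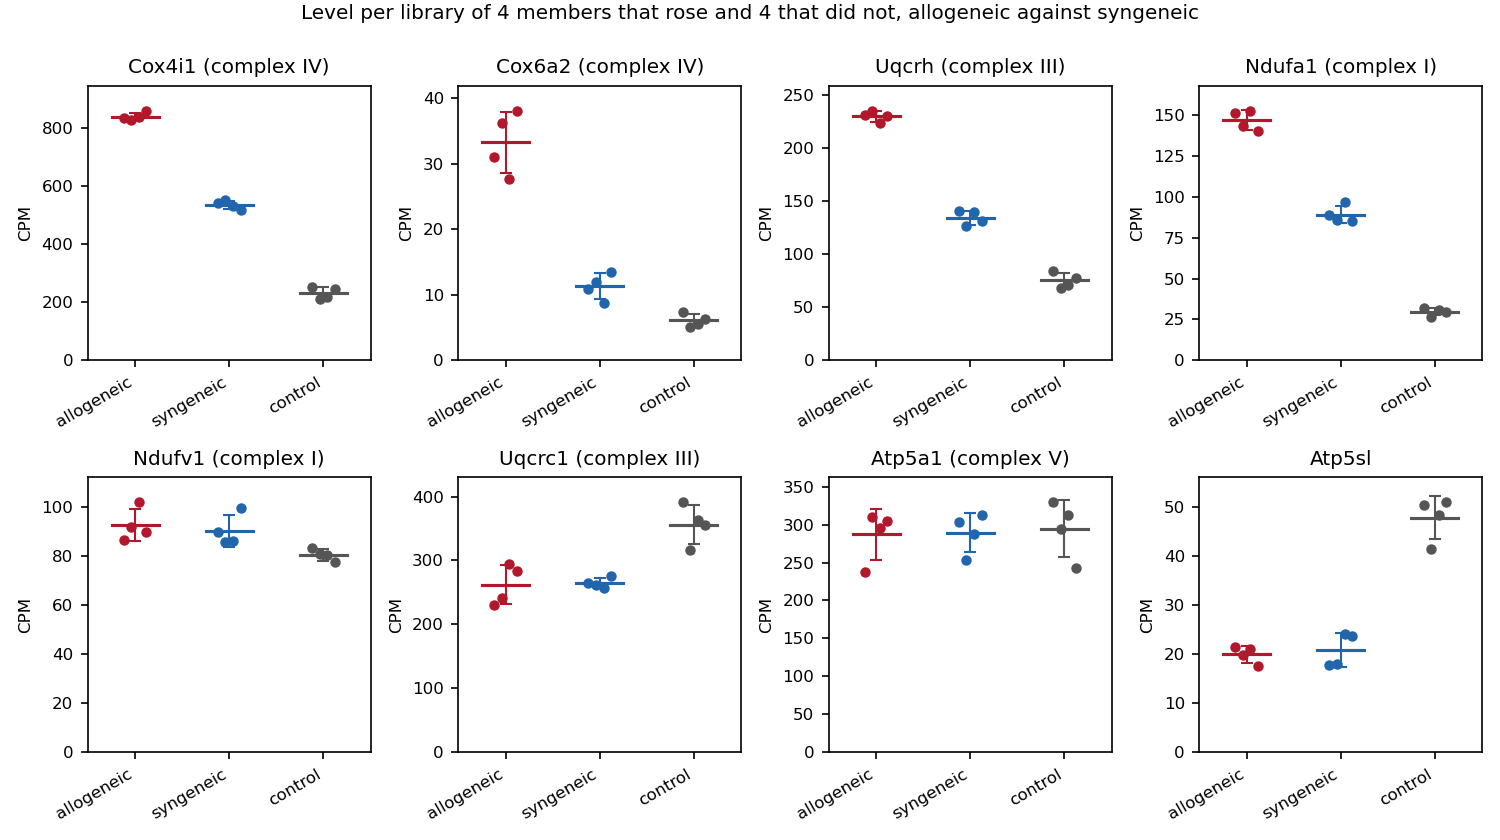
CPM (y axis, from 0) of 8 members in the 4 libraries of each group (points), with the group mean (line) and SD (bar). Cox4i1, Cox6a2, Uqcrh and Ndufa1 are highest in allogeneic, lower in syngeneic and lowest in control libraries without overlap, Uqcrc1 and Atp5sl are higher in control than in both recipient groups, Ndufv1 is slightly lower in control, and the groups of Atp5a1 overlap.

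Compared per kilobase of transcript, Cox4i1 was the most abundant member in every group, at 1128 ± 18.7 CPM per kb in allogeneic, 720.2 ± 18.9 CPM per kb in syngeneic and 311 ± 28.1 CPM per kb in control libraries (SD, n = 4 each). Cox6a1 came next in every group, at 934 ± 43.5, 662 ± 46.2 and 236 ± 12.7 CPM per kb in allogeneic, syngeneic and control libraries, and its libraries overlapped with those of Cox4i1 only in syngeneic mice. In allogeneic libraries Atp5c1, Ndufa4 and Atp5e followed at 511 ± 15.8, 509 ± 11.1 and 509 ± 28.4 CPM per kb, which do not differ beyond their spread. Uqcrc1 was number 3 in control libraries at 216 ± 18.6 CPM per kb and number 48 in allogeneic libraries at 159 ± 18.8 CPM per kb, whereas Ndufa1 was number 19 in allogeneic libraries and number 46 in control libraries. Among the core subunits Uqcrfs1 was lowest, at 18.6 ± 2.01 CPM per kb in allogeneic, 13.4 ± 2.40 in syngeneic and 9.02 ± 0.969 in control libraries.

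The fold changes of the members followed transcript length. The core set of 21 held the core subunits of complex I, Sdha to Sdhd, Uqcrc1, Uqcrc2 and Uqcrfs1. It also held Atp5a1, Atp5b, Atp5c1 and Atp5d, and for complex IV Cox4i1, Cox5a and Cox5b, which surround its mitochondrially encoded core. The 21 have a median transcript length of 1363 nt, the 64 other members of 642 nt and all genes tested of 2718.5 nt (GENCODE M21). In allogeneic against syngeneic microglia 6 of the 21 rose, Cox4i1 and Cox5b among them, at a median log2 fold change of 0.15. Of the 60 other members tested 47 rose, at a median of 0.49. With an offset for GC content and length it was 6 of 21 and 17 of 60, at medians of 0.10 and 0.15. In syngeneic against control microglia 14 of the 21 rose and 2 fell, at a median of 0.48, and 56 of the 60 rose and 1 fell, at a median of 0.90. With the offset 12 of 21 and 49 of 60 rose there. Over the 81 members Spearman's rho between length and log2 fold change was -0.545 in allogeneic against syngeneic, -0.546 in syngeneic against control and -0.667 in allogeneic against control microglia. Over the 12531 other genes with a length it was -0.192, -0.0615 and -0.120 in the same comparisons. For GC content rho was 0.162, 0.0133 and 0.128 over the members and -0.0504, -0.311 and -0.293 over the other genes. After the offset it was 0.0602, 0.509 and 0.478 over the members and -0.0487, -0.0374 and -0.0568 over the other genes. The offset took GC content and length together, so their parts in calls that ended with it were not told apart. These are descriptions across genes, which share libraries and are not independent replicates.

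Genes of like length outside the respiratory chain moved part of the way. Among transcripts under 600 nt, 22 of 25 members and 75 of 305 other genes rose in allogeneic against syngeneic microglia, at median log2 fold changes of 0.57 and 0.40. From 600 to under 1000 nt, 20 of 28 members and 194 of 815 other genes rose, at medians of 0.43 and 0.24, and from 1000 to under 1500 nt 9 of 13 members and 217 of 1362 other genes, at medians of 0.47 and 0.10. At 1500 nt or longer 2 of 15 members rose, at a median of 0.04, and 742 of 10049 other genes, at a median of -0.06. In syngeneic against control microglia the members stood further from genes of like length: under 600 nt 24 of 25 members and 104 of 305 other genes rose, at medians of 0.92 and 0.23. An offset fitted in every library to GC content and length brought the medians of other genes to between -0.01 and 0.00 in the 4 length ranges of the first comparison, though to -0.30 under 600 nt in the second. With it, in the first comparison, 7 of 25 members under 600 nt and 45 of 305 other genes rose there. Of the 53 members that rose in allogeneic against syngeneic microglia, 23 were still called with the offset, among them Cox4i1, Cox5b, Cox7b, Cox8a, Ndufa13, Ndufb9, Ndufv3, Sdhb, Uqcrh and Atp5c1. Of the 70 that rose in syngeneic against control microglia, 59 were still called. The source of the length relation was not tested.

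**Figure D4:**
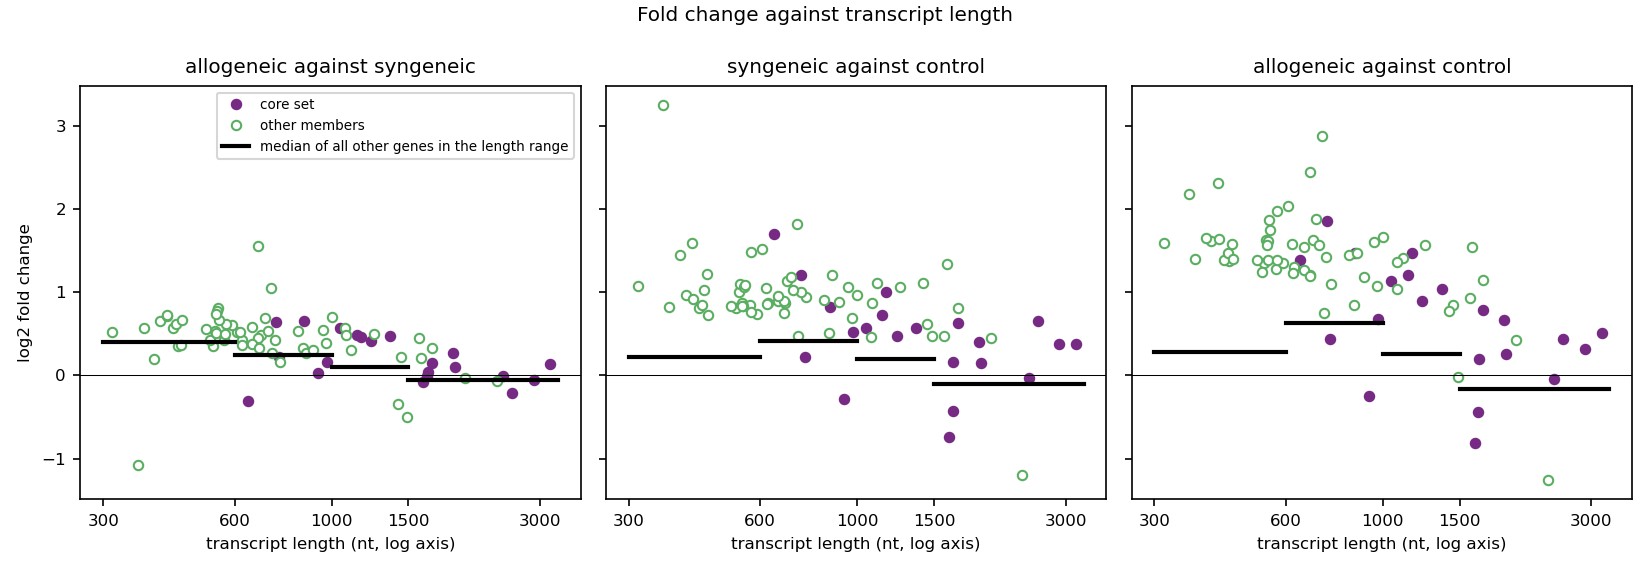
Log2 fold change (y axis) against transcript length (x axis, log scale) of the 81 tested members in 3 comparisons. The core set listed in the text is filled and other members are open. Black lines give the median of all other genes in each length range. Short members lie highest, members of 1500 nt or longer lie around 0 in allogeneic against syngeneic (median 0.04), and most members lie above the lines.

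**Figure D5:**
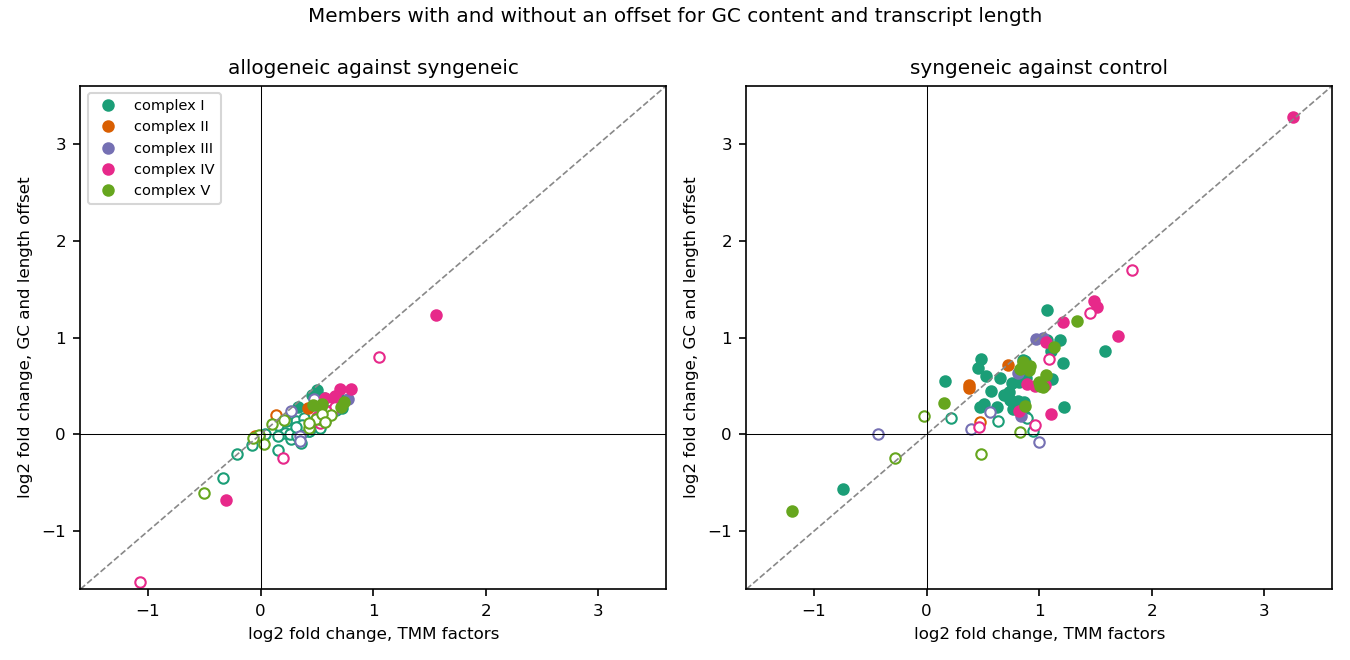
Log2 fold change of the 81 tested members with TMM factors (x axis) and with an added offset for GC content and transcript length (y axis), coloured by complex and filled where the edgeR adjusted p with the offset is under 0.05. Points lie mostly under the dashed line of equal values in both panels; 23 members stay called higher in allogeneic against syngeneic and 61 are called higher in syngeneic against control with the offset.

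Genes around the chain were counted from fixed lists chosen with earlier results of these data known. Of 39 assembly factors tested, 4 rose and 1 fell in allogeneic against syngeneic microglia and 13 rose and 5 fell in syngeneic against control microglia, at medians of 0.14 and 0.28. This is 10.3% and 33.3% higher, where 10.1% and 26.4% of all genes were called higher. With the offset 3 rose and 3 fell in the first and 8 rose and 8 fell in the second. Coa5, a factor for complex IV, averaged 328 ± 41.5 CPM in allogeneic, 188 ± 14.2 CPM in syngeneic and 55.7 ± 6.89 CPM in control libraries (SD, n = 4 each). It rose in allogeneic against syngeneic microglia (log2 change 0.80 ± 0.10, edgeR adjusted p = 1.2e-05). Cox17, the copper chaperone of complex IV, rose by 0.66 ± 0.10 in allogeneic against syngeneic microglia, and Foxred1, a factor for complex I, fell in syngeneic against control microglia (log2 change -1.86 ± 0.17, edgeR adjusted p = 6.36e-08). Of the 5 electron carriers outside the rule, Cycs, which is cytochrome c, and Etfb, of the electron transfer flavoprotein, rose in allogeneic against syngeneic microglia, by 0.49 ± 0.12 and 0.41 ± 0.09, and 4 of 5 rose in syngeneic against control microglia. None of 13 citric acid cycle enzymes was called in allogeneic against syngeneic microglia by edgeR. At an unadjusted p under 0.05 there were 1 higher and 0 lower, and DESeq2 and limma-voom called 1 higher. In syngeneic against control microglia 6 rose and 0 fell, among them Idh3a (log2 change 1.33 ± 0.10, edgeR adjusted p = 6.24e-09). Of the 13 regulators of mitochondrial biogenesis, 0 rose in allogeneic against syngeneic microglia. This held for edgeR at the adjusted or the unadjusted threshold, for DESeq2 and for limma-voom. By edgeR 1, Gabpb1, fell. Gabpb1 averaged 32.1 ± 3.84 CPM in allogeneic, 51.5 ± 15.0 CPM in syngeneic and 34.2 ± 3.92 CPM in control libraries, with syngeneic library 2 at 72.7 CPM. It rose in syngeneic against control microglia (log2 change 0.59 ± 0.17, edgeR adjusted p = 0.00739). Allogeneic against control microglia gave -0.09 ± 0.17 and no call. In syngeneic against control microglia 4 rose and 4 fell, where 26.4% of all genes were called higher and 25.6% lower; with the offset 1 rose and 4 fell. Polrmt, the mitochondrial RNA polymerase, averaged 8.85 ± 1.45 CPM in allogeneic, 10.2 ± 3.04 CPM in syngeneic and 36.8 ± 1.70 CPM in control libraries. It fell in syngeneic against control microglia (log2 change -1.86 ± 0.21, edgeR adjusted p = 6.23e-07). Pprc1, a coactivator, fell by 1.03 ± 0.15 and Polg, the mitochondrial DNA polymerase, by 1.35 ± 0.29 on the log2 scale. Of 12 outer membrane and import genes 5 rose in allogeneic against syngeneic microglia, among them Hspd1 (0.41 ± 0.09), Timm23 (0.40 ± 0.10) and Tomm22 (0.36 ± 0.10). In syngeneic against control microglia 9 rose. There 1 was lower by edgeR at an unadjusted p under 0.05, by DESeq2 and by limma-voom, while these gave 0 lower in allogeneic against syngeneic microglia. With library totals only, 0 electron carriers and 0 import genes rose and 2 and 3 fell in allogeneic against syngeneic microglia, so that the direction of these lists depends on the scaling.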

How the data were processed

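Each of the 12 libraries held counts per gene symbol, deposited as a table of 24328 symbols. Per the labels, RNA with an integrity value of 8 or more was isolated with a Picopure kit. The submitters' processing notes name Trimmomatic 0.36, STAR 2.5.2b and mm9; the counting tool, its annotation and its strand setting were not stated there. In GENCODE M21, 24 of the 85 genes share exon sequence with another gene, 17 of them with a gene in the table, and reads of such pairs may not be told apart. A count of 0 over a group allows up to 0.01901 CPM in allogeneic, 0.01806 CPM in syngeneic and 0.02023 CPM in control mice, for counting error only.

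Genes passing filterByExpr (minimum count 10), 12695 of 18018 with any count, were fitted over all 3 groups with edgeR 4.0.16 (R 4.3.3; TMM factors, quasi-likelihood test, Benjamini-Hochberg adjustment over all genes tested, threshold 0.05; common squared biological coefficient of variation 0.1473). TMM factors were lower in allogeneic (0.8444 to 0.8925) than in syngeneic (1.002 to 1.021) and control libraries (1.096 to 1.159). Alternatives were RLE factors, library totals, DESeq2 1.42.0, limma-voom (limma 3.58.1), a floor of 1 CPM in 4 libraries, no filter, the compared groups only, a replicate block, an offset for GC content and length (loess, span 0.3, GENCODE M21) and each library left out; the removal of a pair of libraries was added after the data were seen. Scripts were tested on simulated data. Ratios used counts, with 0.5 added where a library had 0, and exact two-sided permutation tests. Members and lists were chosen with earlier results of these data known. Named are the core subunits, up to 3 called members per complex, comparison and direction with the smallest p, called members against the direction of their complex, isoform pairs, and up to 3 called genes per list. Ndufa13, Ndufa5, Ndufa10, Ndufb2, Ndufab1, Atp5f1, Atp5s, Sdhd and other members named beyond these were chosen after their values were seen. No column of per-sample values was left unused. Values of 1 tested member are not reported here, though it is included in counts, sums and medians.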

Additional observations from a re-analysis of the deposited data

Results flagged for a closer look

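In 150 groups of 4 libraries, 6 had a library whose gap to its nearest neighbour took up nearly all of the range of its group (Dixon's test at 95%); chance alone does so in about 1 in 20 groups. Control library 3 had 95.6 CPM of Atp5d, where the other controls had 84.3 to 85.7 CPM. Syngeneic library 3 had 119.7 CPM of Uqcrq, where the other syngeneic libraries had 107 to 108 CPM. Control library 2 accounted for 3 of the 6: it had 124 CPM of Cox6a1 where the other controls had 137 to 139 CPM, 40.6 CPM of Cox7a2 where they had 48.7 to 50.2 CPM, and 0.770 CPM of Cox7a1 where they had 0.173 to 0.259 CPM. Allogeneic library 4 had 10.1 CPM of Cox6b2, where the other allogeneic libraries had 7.18 to 7.50 CPM. The calls of Cox6a1, Cox7a2 and Uqcrq held without these libraries.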

How the results depend on the processing

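Values are log2 fold changes or counts of genes called; the cause of each change was not tested. Replicate numbers did not pair the libraries (correlations of same-numbered deviations from -0.015 to 0.0317). Members called higher with the replicate block were 54 in allogeneic against syngeneic, 69 in syngeneic against control and 71 in allogeneic against control microglia. Without the block they were 53, 70 and 71. The share of all genes called with the block is not given. In allogeneic against syngeneic microglia the members called higher were 23 with the GC and length offset and 20 with the block and offset, and those called lower 1 and 1; with library totals 3 members were called lower, and over all genes 844 higher and 2108 lower, while allogeneic against control gave 5 members lower. Over single libraries left out, the members called lower in allogeneic against syngeneic microglia ran from 0 to 2 (2 without allogeneic library 1), and without syngeneic library 4 and allogeneic library 1 it was 1. Turned signs are listed only for core subunits, isoform pairs and called members chosen by smallest p or by direction. Signs of other members turned too and are not listed. With the offset, Ndufb3 turned in allogeneic against control, and Ndufb10 and Ndufc2 in allogeneic against syngeneic microglia. All of them were called higher there without the offset. The listed signs turned as follows, and none of the turned values was past the threshold. Of these, called otherwise were Ndufa4 at 0.36, Uqcrb at 0.35 and Uqcr11 at 0.35 in allogeneic against syngeneic, Uqcrc1 at -0.43 and Uqcrb at 1.001 in syngeneic against control, and Sdha at 0.32, Atp5b at 0.26 and Uqcrb at 1.35 in allogeneic against control microglia. With library totals, in allogeneic against syngeneic: Ndufs8 -0.046, Ndufv1 -0.17, Ndufv2 -0.052, Sdhc -0.070, Atp5b -0.099, Atp5d -0.17 and Cox7a1 -0.0017; in syngeneic against control: Ndufv1 -0.0032 and Atp5b -0.012; in allogeneic against control: Ndufv1 -0.17, Sdha -0.049 and Atp5b -0.11. With the offset, and then with block and offset, in allogeneic against syngeneic: Ndufs8 -0.022 and -0.022, Atp5d -0.097 and -0.091, Ndufa4 -0.089 and -0.087, Uqcrb -0.066 and -0.069, Uqcr11 -0.018 and -0.018, Cox7a1 -0.25 and -0.28; in syngeneic against control: Uqcrc1 0.0057 and 0.010, Atp5a1 0.19 and 0.19, Uqcrb -0.079 and -0.078; in allogeneic against control: Atp5a1 0.18 and 0.18, Uqcrb -0.15 and -0.15. With RLE factors and DESeq2, Uqcrc1 had 0.0029 and 0.0029 and Atp5a1 0.0031 and 0.0031 in allogeneic against syngeneic. With libraries left out, in allogeneic against syngeneic: Ndufv1 -0.013 to 0.11, Uqcrc1 -0.071 to 0.058, Atp5a1 -0.070 to 0.10, Atp5d -0.025 to 0.14, Atp5sl -0.14 to 0.011, Cox4i2 -0.17 to 1.78 and Cox7a1 -0.096 to 0.37; Atp5a1 -0.11 to 0.031 in syngeneic against control and -0.13 to 0.042 in allogeneic against control. Depth limits Cox4i2, Cox7a1 and Cox8b, whose levels were near the filter.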
